A study of Homo sapiens with 9 samples.

Results

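The 34 genes described here encode clotting factors, fibrinogen chains, natural anticoagulants, enzymes and inhibitors of fibrinolysis, and both enzymes of the vitamin K cycle. They were chosen by name from the 19317 genes of the deposited count table, and all 34 were found there. They were followed in HepG2, an established line from a human hepatocellular carcinoma, whose cells secrete many plasma proteins in culture. Group WT (3 samples) was the control, kept in RPMI medium. Group DNL (3 samples), a model of de novo lipogenesis, was grown for 1 week in DMEM with insulin at 10 µg/ml and T0901317, which activates liver X receptors, at 10 µM. Group OA (3 samples) was exposed for 6 hours to DMEM with 25 µM oleic acid, brought in with albumin (11% BSA in PBS). All 9 samples are unmodified HepG2 cells, labelled with the genotype WT, in medium with 10% serum and 1% antibiotics. Medium differs between WT and the other groups, added compounds and duration differ between DNL and OA, and no group received the albumin alone, so these cannot be told apart. Whether the replicates came from separate cultures is not stated, so p-values here reflect the spread between libraries, part or all of which may be technical.

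Blood clots when a cascade of plasma proteases, most of them made by hepatocytes, turns prothrombin into thrombin, which cleaves fibrinogen into fibrin. Tissue factor starts the extrinsic branch and contact factors the intrinsic branch, while antithrombin, the protein C system and tissue factor pathway inhibitor hold the cascade in check. Plasmin, made from plasminogen by its activators, dissolves the fibrin. Several factors work only after a liver carboxylase that depends on vitamin K has modified them.

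Of the coagulation genes called in DNL against WT most were higher, and of those called in OA against WT most were lower. Several genes were called in only 1 of these comparisons. The exceptions in direction were F7, PROC and SERPINC1, which fell in DNL, and TFPI2, PLAU, PLAUR, CPB2 and VKORC1, which rose in OA. Of the 34 genes, 30 passed the filter on low counts and were tested. Of these, 27 reached the cutoff of 0.378 CPM (counts scaled to the size of the library) in every library. KNG1 and PLG passed through WT and DNL and TFPI2 through OA, so a difference was built into their selection. They are kept in the counts that follow. Of all 13636 genes tested, 53.8% were called in either direction in DNL against WT, 60% in OA against WT and 62.8% in DNL against OA. In DNL against WT 18 of the 30 rose (60%, background 27.1% of all genes tested) and 3 fell (10%, background 26.8%), with a median log2 fold change of 0.71 against -0.02 for all genes. Scaling by library totals in place of the trimmed mean of M values (TMM) shifted all genes by -0.166 (median, log2) and gave 16 higher and 5 lower. In OA against WT 5 rose (16.7%, background 30.4%) and 22 fell (73.3%, background 29.7%), with a median of -1.31 against -0.03. A rise of at least 2-fold was called for 9 genes in DNL (background 7.21%) and 3 in OA (8.88%), and a fall of that size for 0 in DNL (5.07%) and 17 in OA (7.95%). Both comparisons share the WT samples.

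**Figure D1:**
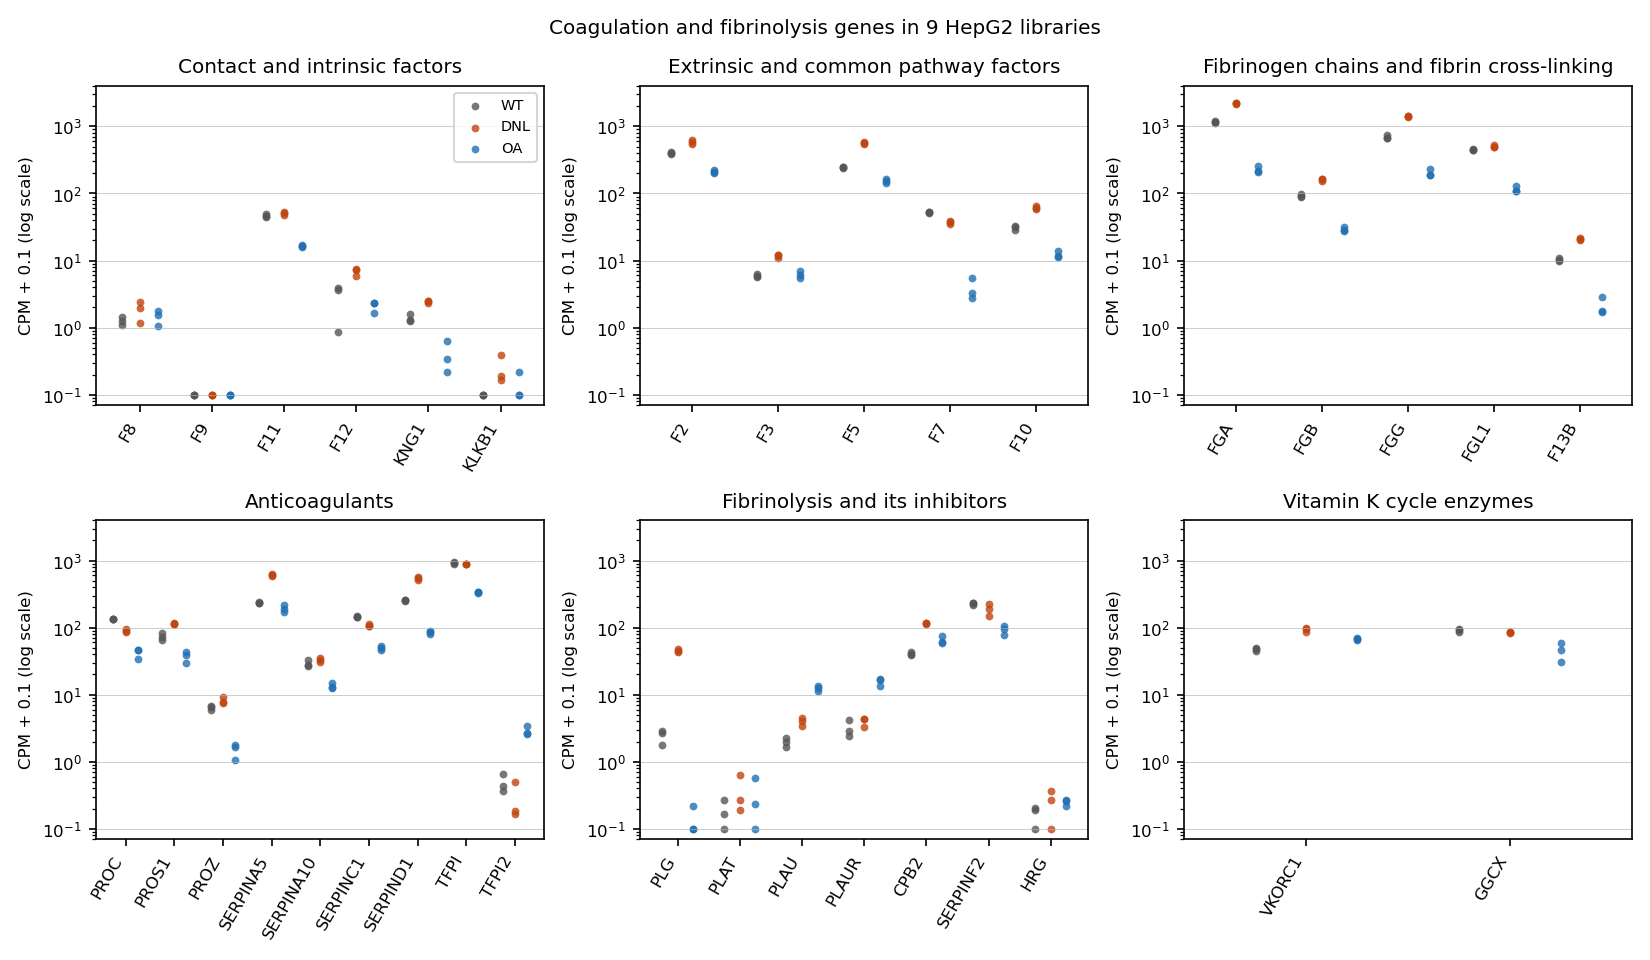
Level of each of the 34 genes in each library, in CPM plus 0.1 on a log axis, by role. Each point is 1 library (3 per group, grey WT, orange DNL, blue OA), and the fibrinogen panel shows the groups apart, for example FGA at 1134 or more in WT, 2175 or more in DNL and at most 259 in OA.

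Levels are TMM-scaled CPM, given in the order of replicates 1, 2 and 3, and adjusted p is from edgeR's quasi-likelihood test with Benjamini-Hochberg adjustment over all genes tested. A gene was called at an adjusted p under 0.05. Total counts ran from 16447381 to 36147348 in DNL, from 7836447 to 28636835 in OA and from 26425581 to 43043316 in WT, with OA replicates 3 and 1 the shallowest. The hepatocyte identity was checked on 9 markers (ALB, TTR, APOA1, APOB, AHSG, TF, SERPINA1, RBP4 and AFP), all of which were measured. Their summed level was 43740 to 45400 CPM in WT, 77500 to 79650 CPM in DNL and 14270 to 16280 CPM in OA. Most of each sum was APOB, with means of 30206 CPM in WT, 49004 CPM in DNL and 8768 CPM in OA. In DNL 7 of the 9 rose (77.8%, background 27.1%) and 1 fell (11.1%, background 26.8%). In OA 8 fell (88.9%, background 29.7%) and 0 rose (background 30.4%). These markers thus moved with the coagulation genes, and their part in the result was not tested. In bulk samples fewer cells of a type and less RNA per cell cannot be told apart.

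OA libraries also held transcripts that mark stellate cells and fibroblasts. Of 7 such markers, 6 were tested. In OA against WT 2 rose (33.3%, background 30.4%), COL1A1 and COL3A1, and 1 fell (16.7%, background 29.7%). The fall was that of PDGFRB, 2.14-fold in OA (adjusted p = 0.00849), and PDGFRB fell 9.68-fold in DNL (adjusted p = 6.75e-06). COL1A2, ACTA2 and DCN were not called in OA against WT. The summed level of the 7 markers was 71.0 to 77.0 CPM in WT and 90.6 to 92.6 CPM in DNL, where ACTA2 made up most of it. It was 95.2, 222.6 and 1039 CPM in OA replicates 1, 2 and 3. COL1A1, a chain of type I collagen, measured 19.3, 85.0 and 537 CPM in OA and at most 0.990 CPM in a WT library. COL1A2 had no counts in WT or DNL. Where these transcripts came from was not tested, and RNA of other cells in the OA libraries would bear on every OA value given here. OA replicate 1, the lowest in collagen, still held COL1A1 above every WT library, so no OA library was free of these transcripts. LUM was at 0 in every WT and DNL library. Of 8 endothelial markers 3 were tested. Of these, 2 rose in DNL (66.7%, background 27.1%), VWF 7.05-fold and PECAM1 1.83-fold, with none called in OA. Their summed level was 1.89 to 2.60 CPM in WT, 5.70 to 7.32 CPM in DNL and 1.42 to 2.61 CPM in OA, and STAB2, a marker of liver sinusoids, was at 0 in every library. Of 7 platelet markers 2 were tested, and 1 of these rose in DNL (50%, background 27.1%) and fell in OA (50%, background 29.7%). TUBB1 was the platelet gene that stood out, at 33.3 to 38.0 CPM in DNL and at most 2.03 CPM in WT. ITGA2B, the other one tested, had 27, 30 and 12 counts over WT, DNL and OA and was not called in any comparison. GP6 had 15, 9 and 6 counts, while PF4, PPBP and GP9 were at 0 in every library. The 7 macrophage markers summed to between 35.9 and 53.4 CPM in every library, most of it CD68, and CD163 and MARCO were at 0 throughout. Of the 3 tested, 1 rose (33.3%, background 27.1%) and 1 fell (33.3%, background 26.8%) in DNL. In OA 1 fell (33.3%, background 29.7%) and 0 rose (background 30.4%). CD14 rose 2.24-fold in DNL (adjusted p = 0.000652) and fell 9.95-fold in OA (adjusted p = 1.3e-06), and CD68 fell in DNL. The part of these markers in the results was not tested.

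Fibrinogen chains and their partners gave the clearest pattern. All 5 genes of this group rose in DNL (background 27.1%) and all 5 fell in OA (background 29.7%). The DNL rise of FGL1 was 1.11-fold, and its call was lost in several refits given below. FGA, the alpha chain, measured 1220.5, 1147 and 1134 CPM in WT, 2175, 2204 and 2227 CPM in DNL, and 259, 213 and 209 CPM in OA. Its 3 groups did not overlap, with a 1.89-fold rise in DNL (log2 fold change 0.92, SE 0.0675, adjusted p = 4.44e-07) and a 5.14-fold fall in OA (log2 fold change -2.36, SE 0.0718, adjusted p = 2.27e-10). FGG, the gamma chain, measured 733, 671 and 669 CPM in WT, 1444, 1443 and 1385 CPM in DNL, and 235, 188 and 188 CPM in OA. FGB, the beta chain, measured 97.0, 88.6 and 90.9 CPM in WT, 164, 162 and 156 CPM in DNL, and 31.2, 28.0 and 27.3 CPM in OA. Every DNL library lay above and every OA library below the WT libraries for both chains, at 2.06-fold and 1.74-fold higher in DNL (adjusted p = 6.86e-07 and 9.1e-08) and 3.39-fold and 3.20-fold lower in OA (adjusted p = 1.16e-08 and 2.21e-10) for FGG and FGB. The ratio of FGA to FGG within a library was 1.67 to 1.71 in WT, 1.51 to 1.61 in DNL and 1.11 to 1.13 in OA, so FGA stood lower relative to FGG in every OA library.

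Secreted fibrinogen holds the chains in equal numbers, but their transcripts did not reach equal levels here. Per kilobase of the median protein-coding transcript, the WT level was 519 CPM for FGA, 419 CPM for FGG and 58.7 CPM for FGB. The annotation behind the counts is not given in the sources used here, and how it bears on the FGB level was not tested. The FGB, FGA and FGG genes lie side by side on chromosome 4 (GRCh38, GENCODE release 29), at 154562956 to 154571086 on the plus strand, and at 154583126 to 154590766 and 154604134 to 154612967 on the minus strand. F13B, on chromosome 1 at 197038741 to 197067267, encodes the carrier subunit of factor XIII, the enzyme that cross-links fibrin. It measured 10.7, 9.89 and 9.99 CPM in WT, 20.05, 21.1 and 21.9 CPM in DNL, and 1.66, 1.61 and 2.73 CPM in OA. That is a 2.06-fold rise (adjusted p = 2.3e-05) and a 5.43-fold fall (adjusted p = 6.54e-08), close in size to those of FGA.

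FGL1, a secreted relative of fibrinogen made by hepatocytes, differed from the chains in DNL. It stood at 466, 446 and 443 CPM in WT and at 488, 489.5 and 527 CPM in DNL, a 1.11-fold difference (adjusted p = 0.0436). The call was lost without DNL replicate 3 (adjusted p = 0.168), WT replicate 2 (0.13) or WT replicate 3 (0.14) and without the filter on low counts (0.0599), and scaling by library totals turned the sign (-0.01, adjusted p = 0.863). In OA it fell 3.93-fold, to 128, 109.6 and 107 CPM (adjusted p = 7.76e-11). Expression per kilobase was 330 CPM in WT, of the same order as FGA and FGG.

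The promoters of the fibrinogen chains and F13B, all higher in DNL and lower in OA, are shown with that of plasminogen (PLG), described further on, as the 250 bases before each RefSeq start (GRCh38.p14). Of the 34 genes, 30 had an entry (FGL1, SERPINC1, PLAT and SERPINF2 had none). Capitals mark matches on either strand to CCAAT, a short element of many promoters.
FGA, chr4:154590743-154590992, minus strand: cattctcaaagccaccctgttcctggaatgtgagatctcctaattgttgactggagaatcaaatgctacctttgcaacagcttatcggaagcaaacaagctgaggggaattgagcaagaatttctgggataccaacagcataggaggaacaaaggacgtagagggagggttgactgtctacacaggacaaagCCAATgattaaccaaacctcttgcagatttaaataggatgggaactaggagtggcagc
FGB, chr4:154562730-154562979, plus strand: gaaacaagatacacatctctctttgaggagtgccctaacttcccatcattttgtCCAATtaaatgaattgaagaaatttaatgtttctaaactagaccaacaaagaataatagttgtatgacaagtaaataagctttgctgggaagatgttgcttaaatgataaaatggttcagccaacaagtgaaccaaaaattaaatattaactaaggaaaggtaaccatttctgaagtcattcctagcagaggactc
FGG, chr4:154612657-154612906, minus strand: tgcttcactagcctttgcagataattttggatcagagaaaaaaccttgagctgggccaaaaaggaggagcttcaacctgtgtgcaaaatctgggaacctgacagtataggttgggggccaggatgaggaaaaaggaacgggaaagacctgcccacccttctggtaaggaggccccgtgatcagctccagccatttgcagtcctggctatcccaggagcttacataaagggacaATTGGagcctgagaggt
F13B, chr1:197067261-197067510, minus strand: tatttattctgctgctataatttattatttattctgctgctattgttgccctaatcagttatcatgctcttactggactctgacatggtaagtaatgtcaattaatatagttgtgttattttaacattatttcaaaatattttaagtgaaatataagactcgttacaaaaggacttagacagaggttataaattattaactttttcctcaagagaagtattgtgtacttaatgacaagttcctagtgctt
PLG, chr6:160701943-160702192, plus strand: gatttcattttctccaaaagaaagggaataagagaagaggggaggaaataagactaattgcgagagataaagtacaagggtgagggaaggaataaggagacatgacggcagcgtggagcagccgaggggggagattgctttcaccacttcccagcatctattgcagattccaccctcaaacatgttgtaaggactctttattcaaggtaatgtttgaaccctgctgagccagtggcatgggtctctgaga
The CCAAT letters were found in 10 of the 30, among them FGA, FGB and FGG, against 32% of the 35116 promoters of this length in the table. A core of HNF4 sites, CAAAGTCCA, was found in PROZ alone (0.325% of all promoters). The palindrome TTGCGCAA of CEBP factors and the perfect direct repeat of AGGTCA with 4 bases of any kind between, the ideal site of liver X receptors, were in none of the 30, and in 0.131% and 0.0142% of all promoters. These are matches of letters and say nothing of binding.

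Among the 5 factors of the extrinsic and common pathway, 4 rose (80%, background 27.1%) and 1 fell (20%, background 26.8%) in DNL. In OA 4 fell (80%, background 29.7%) and 0 rose (background 30.4%). F5 (chromosome 1, 169514166 to 169586588) encodes factor V, the cofactor that speeds thrombin formation. It measured 247, 252 and 242 CPM in WT, 575, 556 and 543 CPM in DNL, and 165, 143 and 153 CPM in OA. The groups did not overlap, at 2.26-fold higher in DNL (adjusted p = 6.43e-10) and 1.61-fold lower in OA (adjusted p = 9.34e-08). F2, which encodes prothrombin, measured 419, 385 and 399 CPM in WT, 622, 586 and 543 CPM in DNL, and 223, 206 and 205 CPM in OA. It was 1.45-fold higher in DNL (adjusted p = 2.27e-06) and 1.90-fold lower in OA (adjusted p = 1.54e-08), again without overlap. F3 encodes tissue factor, the membrane protein that starts the cascade. It was low, at 5.65 to 6.12 CPM in WT, and rose 1.97-fold in DNL, to between 10.8 and 12.04 CPM (adjusted p = 4.47e-05). In OA it measured 5.46 to 6.89 CPM and did not pass the test (log2 fold change 0.08, SE 0.14, adjusted p = 0.664).

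F7 and F10, neighbours 2132 bases apart on chromosome 13 (113105788 to 113120681 and 113122814 to 113149529, both on the plus strand), moved in opposite directions in DNL. F7 encodes factor VII, the protease that tissue factor binds. It measured 52.8, 52.1 and 50.3 CPM in WT, 39.0, 37.0 and 35.3 CPM in DNL, and 5.45, 2.67 and 3.21 CPM in OA. F7 thus fell in DNL by 0.48 on the log2 scale (SE 0.132, adjusted p = 0.00948), with every DNL library below every WT library, and 14.4-fold in OA (adjusted p = 5.43e-09). F10, which encodes factor X, the protease that cleaves prothrombin, measured 31.4, 28.3 and 32.3 CPM in WT, 58.4, 64.1 and 59.8 CPM in DNL, and 13.98, 11.3 and 11.5 CPM in OA. It rose 1.98-fold in DNL (adjusted p = 5.58e-07) and fell 2.51-fold in OA (adjusted p = 8.36e-08). The ratio of F10 to F7 counts within a library was 0.543 to 0.643 in WT, 1.498 to 1.73 in DNL and 2.57 to 4.25 in OA, with no overlap between the groups. PROZ follows 9124 bases after F10 and encodes protein Z, the cofactor of the protein Z-dependent inhibitor of factor Xa. It measured 5.82, 6.50 and 6.73 CPM in WT, 7.76, 8.98 and 7.36 CPM in DNL, and 0.948, 1.58 and 1.66 CPM in OA. It fell 4.50-fold in OA (adjusted p = 1.76e-06), and the higher DNL levels did not pass the test (adjusted p = 0.135).

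**Figure D2:**
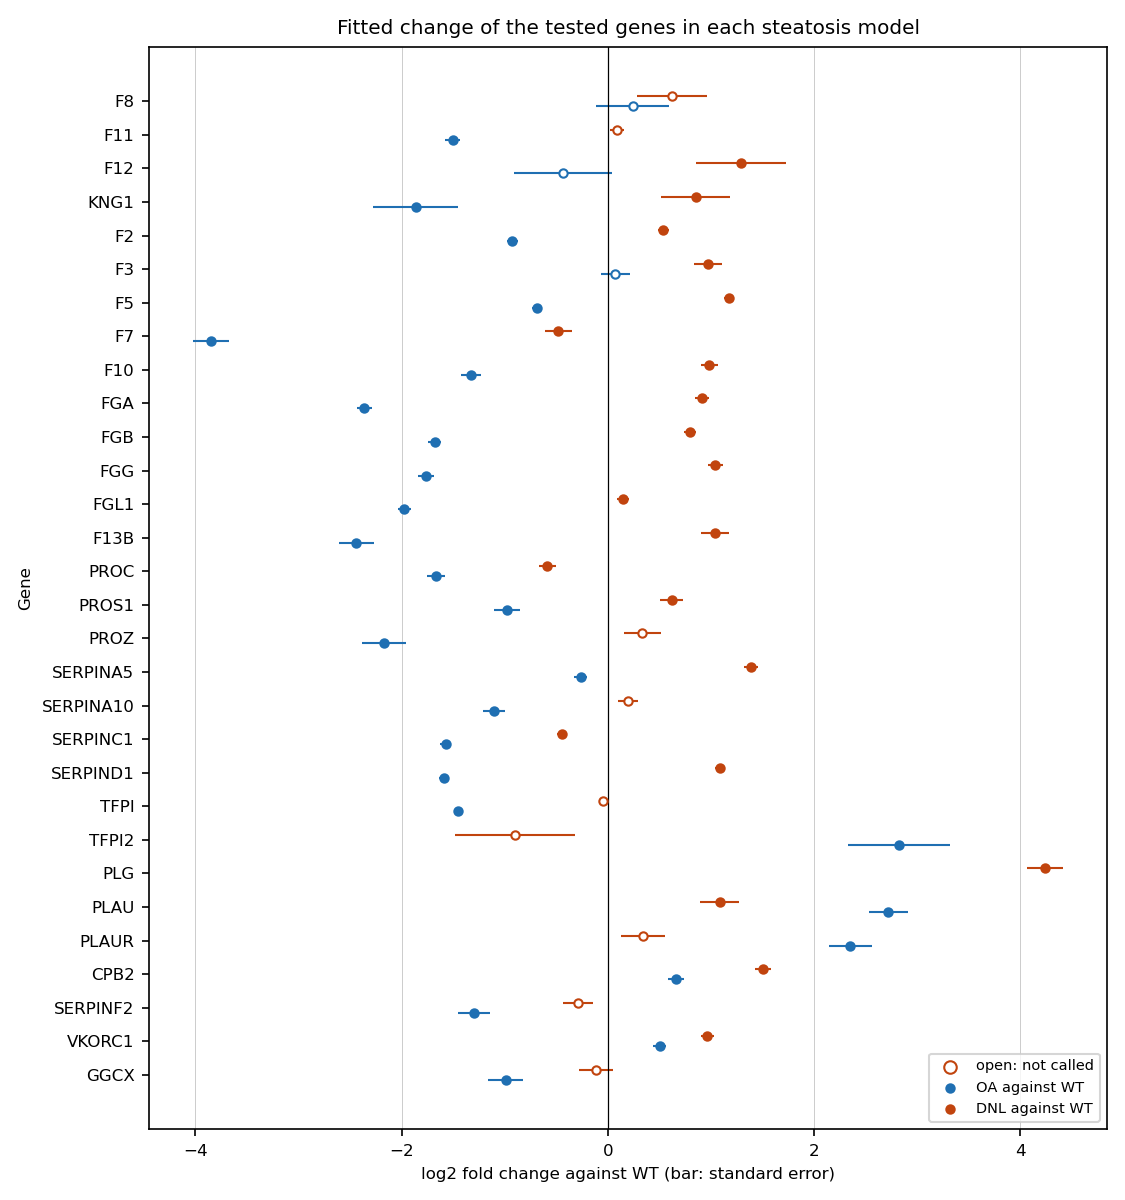
Fitted log2 fold change of the 30 tested genes against WT, with the standard error as a bar (orange DNL, blue OA; filled points are called, open points are not). Most orange points lie right of 0 and most blue points left of it, and PLAU, PLAUR and TFPI2 are the blue points beyond 2. The OA value of PLG, with 1 count over 3 libraries, is not plotted.

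Contact and intrinsic factors were mostly low in these cells. Of 6 genes 4 were tested. Of these, 2 rose in DNL (50%, background 27.1%) and 2 fell in OA (50%, background 29.7%). F11 (chromosome 4, 186265945 to 186288806) encodes factor XI, which activates factor IX. It measured 46.7, 44.0 and 50.0 CPM in WT, 50.3, 52.8 and 47.1 CPM in DNL, and 15.95, 16.6 and 16.98 CPM in OA. WT and DNL overlapped (adjusted p = 0.28), while OA lay 2.84-fold below WT (adjusted p = 3.79e-09). KNG1, which encodes kininogen, the cofactor of the contact system, measured 1.52, 1.15 and 1.21 CPM in WT, 2.40, 2.26 and 2.37 CPM in DNL, and 0.237, 0.527 and 0.119 CPM in OA. It was 3.64-fold lower in OA (adjusted p = 0.00156), but it passed the filter through WT and DNL. In DNL it was 1.81-fold higher, without overlap, at adjusted p = 0.0456. That call was lost with the replicate numbers as a block (adjusted p = 0.0657), in DESeq2 (0.0507), without the filter on low counts (0.0576), with scaling by library totals (0.0941) and without any single DNL or WT library (0.0656 to 0.138).

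F12, which encodes factor XII, the starter of the contact system, measured 3.80, 3.59 and 0.768 CPM in WT, 5.79, 7.45 and 7.02 CPM in DNL, and 2.21, 2.21 and 1.54 CPM in OA. WT replicate 3 stood apart from the other WT libraries. The 2.45-fold rise in DNL (adjusted p = 0.0292) was lost without DNL replicate 2 (0.0752) or DNL replicate 3 (0.0691) and in a fit of those 6 samples alone (0.0829). Without WT replicate 3, F12 was lower in OA than in WT (log2 fold change -0.87, adjusted p = 0.00841), where with all samples it did not pass the test (-0.43, adjusted p = 0.456). The F12 span overlaps that of GRK6 on the other strand, and whether kallisto used strand is not given in the sources used here. F8, which encodes the cofactor factor VIII, stood at 1.01 to 1.32 CPM in WT, 1.06 to 2.31 CPM in DNL and 0.950 to 1.66 CPM in OA, and did not pass the test in any comparison (adjusted p = 0.139, 0.578 and 0.369 for DNL against WT, OA against WT and DNL against OA).

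The 4 genes left untested belong to the contact and intrinsic factors and to fibrinolysis. F9, which encodes factor IX, had a count of 0 in all 9 libraries, where 3 counts would be 0.0691 CPM in the deepest and 0.356 CPM in the shallowest. How the annotation behind the counts bears on this 0 was not tested. KLKB1, which encodes plasma prekallikrein, had 0 counts over WT, 11 over DNL and 1 over OA. With 3 counts assumed over the WT group it would be 5.14-fold higher in DNL. The exact 95% interval of the ratio, for counting error only, starts at 3.52. The KLKB1 span overlaps that of CYP4V2 on the same strand, and reads there may be shared. HRG, which encodes histidine-rich glycoprotein, a plasma protein that binds plasminogen, had 7, 8 and 8 counts over WT, DNL and OA. PLAT, which encodes the tissue plasminogen activator, had 8, 15 and 8. Neither gives a difference that these depths could show.

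Of 9 anticoagulant genes, 3 rose (33.3%, background 27.1%) and 2 fell (22.2%, background 26.8%) in DNL, both near background. In OA 8 fell (88.9%, background 29.7%) and 1 rose (11.1%, background 30.4%). Inhibitors of thrombin went separate ways in DNL. SERPIND1 encodes heparin cofactor II, a thrombin inhibitor (chromosome 22, 20773879 to 20787720). It measured 262, 259 and 246 CPM in WT, 553, 563 and 518 CPM in DNL, and 88.5, 86.2 and 79.8 CPM in OA. The groups lay apart, at 2.13-fold higher in DNL (adjusted p = 9.16e-10) and 3.005-fold lower in OA (adjusted p = 5.15e-11). SERPINC1 encodes antithrombin, the main plasma inhibitor of thrombin and factor Xa (chromosome 1, 173903804 to 173917378). It measured 149, 146 and 145 CPM in WT, 113, 105 and 106 CPM in DNL, and 52.4, 47.0 and 49.0 CPM in OA. It was lower in both models, by 1.36-fold in DNL (adjusted p = 9.04e-06) and 2.97-fold in OA (adjusted p = 1.13e-10).

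SERPINA5 encodes the protein C inhibitor, which also blocks plasminogen activators. It measured 235, 237 and 231 CPM in WT, 628, 597 and 618 CPM in DNL, and 219.8, 192 and 174 CPM in OA. It rose 2.62-fold in DNL (adjusted p = 5.08e-09). In OA it fell by 0.26 on the log2 scale (adjusted p = 0.0044), a call that was lost with OA replicate 1 as the single OA library (log2 fold change -0.09, adjusted p = 0.135). SERPINA10, which encodes the protein Z-dependent inhibitor, measured 26.4, 27.8 and 32.4 CPM in WT, 35.2, 31.0 and 32.7 CPM in DNL, and 14.8, 12.8 and 12.6 CPM in OA. It fell 2.15-fold in OA (adjusted p = 1.22e-06), while DNL overlapped WT and did not pass the test (adjusted p = 0.103). Spans of other genes in the table overlap those of SERPINA5 (SERPINA4, same strand), SERPIND1 (PI4KA) and TFPI2 (GNGT1), the last pair of overlaps on opposite strands, and reads there may be shared.

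The protein C system split in DNL as well. PROC encodes protein C, which inactivates factors V and VIII. It measured 136, 133 and 136 CPM in WT, 89.9, 95.1 and 84.9 CPM in DNL, and 45.8, 45.5 and 34.4 CPM in OA. It fell by 0.58 on the log2 scale in DNL (adjusted p = 6.25e-05) and 3.17-fold in OA (adjusted p = 7.75e-09), with no overlap between groups. PROS1, which encodes the cofactor protein S, measured 84.4, 64.6 and 73.1 CPM in WT, 114, 112 and 116 CPM in DNL, and 43.04, 38.9 and 29.7 CPM in OA. Unlike PROC it was higher in DNL, by 1.54-fold (adjusted p = 0.00106), and it fell 1.97-fold in OA (adjusted p = 5.16e-05).

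TFPI and TFPI2, a pair of related Kunitz-type inhibitors, moved in opposite directions in OA. TFPI, the inhibitor of the tissue factor and factor VIIa complex (chromosome 2, 187464230 to 187565760), measured 956, 909 and 892 CPM in WT and 901, 897 and 878 CPM in DNL, which overlap (adjusted p = 0.329). In OA it measured 336, 339 and 332 CPM, 2.74-fold lower (adjusted p = 8.82e-12). With scaling by library totals TFPI was called lower in DNL (log2 fold change -0.21, adjusted p = 9.45e-05). TFPI2, a matrix-bound inhibitor of plasmin and related proteases (chromosome 7, 93885396 to 93890991), measured 0.552, 0.271 and 0.329 CPM in WT, 0.400, 0.0665 and 0.0831 CPM in DNL, and 2.45, 3.29 and 2.61 CPM in OA. It was the 1 anticoagulant gene that rose in OA (log2 fold change 2.82, SE 0.494, adjusted p = 0.000275), with every OA library above every WT library. TFPI2 reached the filter cutoff in 3 OA libraries, 1 WT library and 0 DNL libraries. A difference was thus built into its selection, and its test is no independent support for the rise. In DNL it did not pass the test (adjusted p = 0.214), except without DNL replicate 1 (log2 fold change -2.27, adjusted p = 0.0147).

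Fibrinolysis genes spanned a wide range. Of 7 genes 5 were tested. In DNL 3 rose (60%, background 27.1%) and 0 fell (background 26.8%). In OA 3 rose (60%, background 30.4%) and 2 fell (40%, background 29.7%). PLG encodes plasminogen, the precursor of plasmin (chromosome 6, 160702238 to 160753315). It measured 2.76, 2.57 and 1.68 CPM in WT, 48.0, 43.2 and 44.0 CPM in DNL, and 0, 0 and 0.119 CPM in OA. The rise in DNL was 19.0-fold (log2 fold change 4.25, SE 0.175, adjusted p = 7.83e-10). In counts, PLG had 242 over the 3 WT libraries, 3268 over DNL and 1 over OA, so the ratio of WT to OA was 124 (exact 95% interval 22.1 to 4921, counting error only) and that of DNL to OA 2349 (421 to 92800). PLG was called lower in OA than in WT (adjusted p = 4.46e-07), but it passed the filter through WT and DNL. Near-identical copies of part of PLG exist, and the estimator may split reads among them. PLGLB1 had 112, 58 and 69 counts in WT, 62, 38 and 53 in DNL, and 9, 55 and 19 in OA. PLGLB2 had 4, 10 and 26 counts in WT, 10, 0 and 0 in DNL, and 20, 26 and 12 in OA, and LPA had at most 5 counts in a library.

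**Figure D3:**
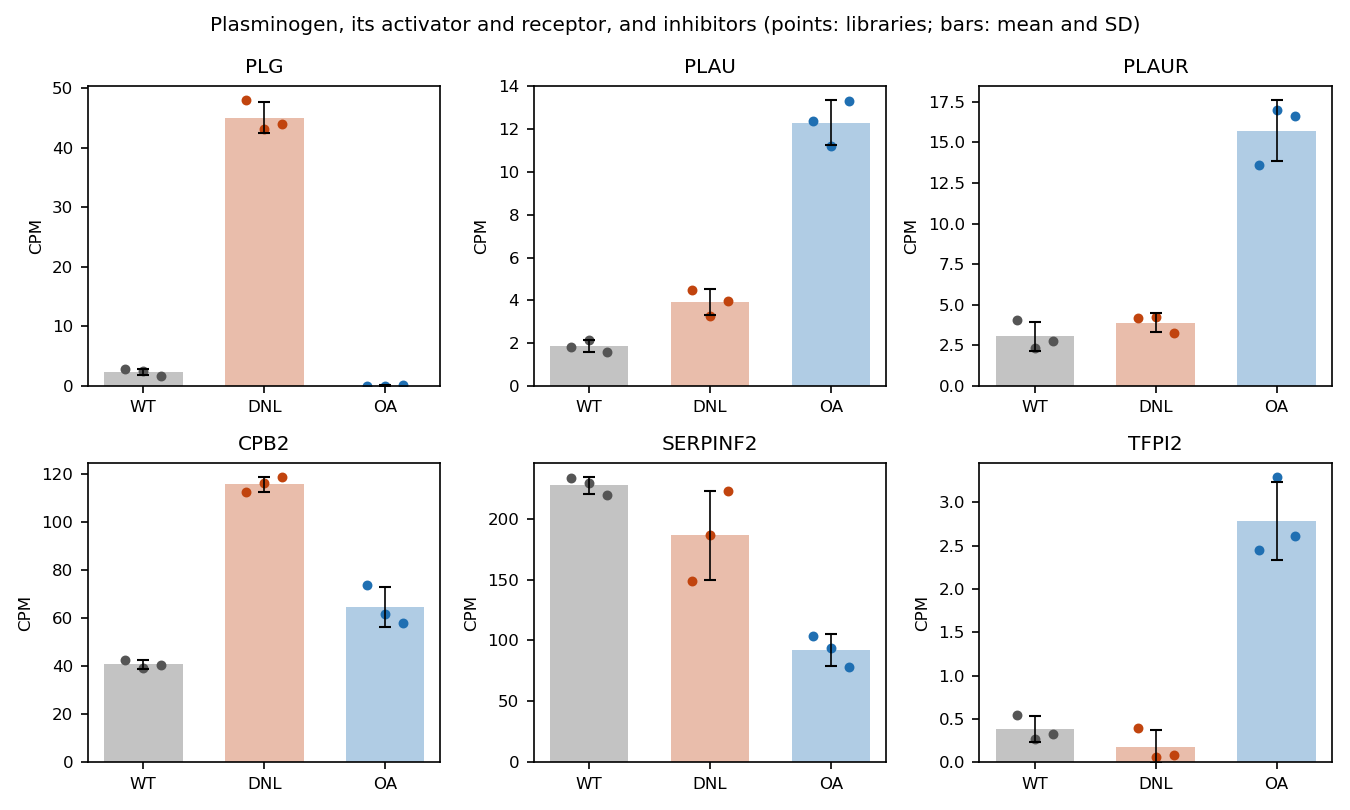
CPM of PLG, PLAU, PLAUR, CPB2, SERPINF2 and TFPI2 by group on linear axes that start at 0; points are libraries, bars the mean and error bars the SD of 3 libraries. PLG stands at 43.2 to 48.0 in DNL against at most 2.76 in WT, and PLAU and PLAUR are highest in OA.

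PLAU and PLAUR, in contrast to most of the 30 genes, were higher in OA. PLAU encodes urokinase, the plasminogen activator that works at cell surfaces (chromosome 10, 73909177 to 73917497). It measured 1.84, 2.13 and 1.57 CPM in WT, 4.47, 3.26 and 3.99 CPM in DNL, and 12.4, 11.2 and 13.3 CPM in OA. It rose in both models, 2.12-fold in DNL (adjusted p = 0.000322) and 6.60-fold in OA (adjusted p = 7.22e-08). PLAUR encodes the urokinase receptor (chromosome 19, 43646095 to 43670547). It measured 4.05, 2.34 and 2.74 CPM in WT, 4.19, 4.26 and 3.24 CPM in DNL, and 13.6, 16.97 and 16.6 CPM in OA. OA lay 5.12-fold above WT (adjusted p = 7.45e-07), and DNL overlapped WT (adjusted p = 0.202) but was called higher without WT replicate 1 (log2 fold change 0.62, adjusted p = 0.0251).

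Inhibitors of fibrinolysis did not move as 1 group. CPB2 encodes the thrombin-activatable fibrinolysis inhibitor, a carboxypeptidase that trims fibrin. It measured 42.7, 39.1 and 40.6 CPM in WT, 112, 116 and 119 CPM in DNL, and 73.8, 61.8 and 58.0 CPM in OA. It rose in both models, 2.84-fold (adjusted p = 4.7e-09) and 1.58-fold (adjusted p = 9.63e-06), whereas 22 of the 30 genes fell in OA. SERPINF2, which encodes the plasmin inhibitor alpha-2-antiplasmin, measured 233, 229 and 219.7 CPM in WT, 149, 187 and 223 CPM in DNL, and 104, 93.9 and 77.9 CPM in OA. It fell 2.46-fold in OA (adjusted p = 0.000142). Its DNL libraries were spread out and missed the threshold (adjusted p = 0.133), but were called lower without DNL replicate 3 (log2 fold change -0.44, adjusted p = 0.0146), in limma-voom (-0.33, 0.0264) and with scaling by library totals (-0.45, 0.0384).

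The levels of PLAU, PLAUR and TFPI2 were set beside the collagen transcripts in OA. COL1A1 was lowest in OA replicate 1 and highest in replicate 3. PLAU, PLAUR and TFPI2 measured 12.4, 13.6 and 2.45 CPM in replicate 1, 11.2, 16.97 and 3.29 CPM in replicate 2, and 13.3, 16.6 and 2.61 CPM in replicate 3. What part the source of the collagen transcripts had in these levels was not tested. With OA replicate 1 as the single OA library, the log2 fold change against WT was 2.74 for PLAU, 2.14 for PLAUR and 2.62 for TFPI2. That fit was chosen after the data were seen, and it assumes that the lone library varies like the others. OA replicate 1 itself held COL1A1 at 19.3 CPM, above every WT library, so that fit cannot show levels free of the collagen transcripts. The next 2 genes, chosen after their values were seen, were highest in OA replicate 3 like the collagens. THBS1, which encodes thrombospondin, measured 149.6, 186 and 437 CPM in OA and 201, 203 and 202 CPM in WT. It was thus lower in OA replicates 1 and 2 than in WT and was not called in OA against WT (1.26-fold, adjusted p = 0.498). THBD, the thrombin receptor thrombomodulin, had 0, 5 and 16 counts in OA and 0 in the other groups.

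**Figure D4:**
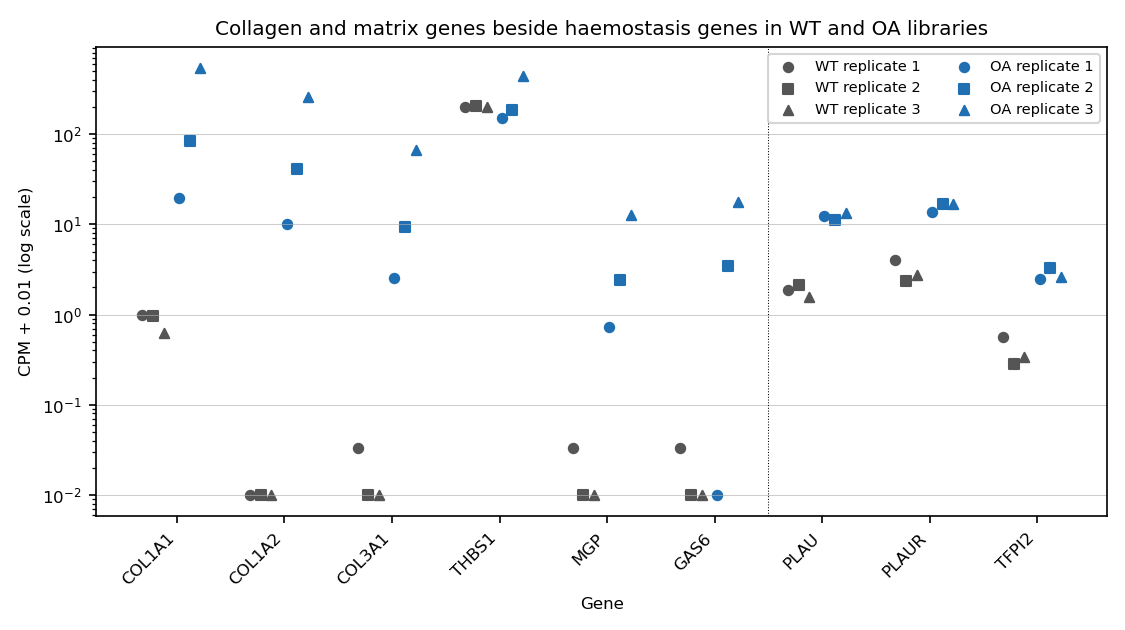
CPM plus 0.01 on a log axis in the 3 WT (grey) and 3 OA (blue) libraries, with a marker shape per replicate. Left of the dotted line are COL1A1, COL1A2, COL3A1, THBS1, MGP and GAS6, all highest in OA replicate 3. THBS1 is also in the list of other haemostasis genes, and MGP and GAS6 in that of vitamin K dependent proteins. Right of the line are PLAU, PLAUR and TFPI2, and the sides were not tested against each other. Over the OA libraries COL1A1 spans 19.3 to 537, PLAU 11.2 to 13.3, PLAUR 13.6 to 16.97 and TFPI2 2.45 to 3.29.

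The vitamin K cycle enzymes moved apart. VKORC1, the reductase that warfarin blocks, measured 49.8, 44.7 and 48.0 CPM in WT, 86.5, 97.9 and 94.4 CPM in DNL, and 68.5, 68.7 and 64.6 CPM in OA. It rose 1.95-fold in DNL (adjusted p = 4.8e-08) and 1.42-fold in OA (adjusted p = 1.88e-05). GGCX, the carboxylase that uses reduced vitamin K, measured 85.4, 93.3 and 95.6 CPM in WT, 82.0, 86.6 and 84.8 CPM in DNL, and 58.3, 46.9 and 30.9 CPM in OA. It was lower in OA (log2 fold change -0.99, SE 0.173, adjusted p = 0.00109) and did not pass the test in DNL (adjusted p = 0.589). The OA libraries were uneven for GGCX, with replicate 3 lowest. The spans of GGCX and MAT2A overlap on opposite strands.

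The direct comparison of the models tests whether they differ for a gene. Of the 30, 26 were higher in DNL than in OA (86.7%, background 31.9%) and 3 were lower (10%, background 30.9%), and 22 of the higher ones differed at least 2-fold (background 10.1%), as did all 3 lower ones (background 9.94%). The 3 lower genes were PLAU, PLAUR and TFPI2, at log2 fold changes of -1.64, -2.02 and -3.72 (adjusted p = 4.37e-06, 2.48e-06 and 5.81e-05). TFPI2 had passed the filter through OA, and PLG and KNG1, among the higher genes, through WT and DNL. F13B (11.2-fold), F7 (10.4-fold) and FGA (9.69-fold) followed PLG among the higher genes. CPB2 and VKORC1, higher than WT in both models, were 1.79-fold and 1.38-fold higher in DNL than in OA (adjusted p = 7.13e-07 and 3.37e-05).

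Other genes of haemostasis were followed in a list of 27, of which 24 were tested. In DNL 14 rose (58.3%, background 27.1%) and 5 fell (20.8%, background 26.8%). In OA 5 rose (20.8%, background 30.4%) and 12 fell (50%, background 29.7%). A2M encodes alpha-2-macroglobulin, a broad inhibitor of plasma proteases, plasmin and thrombin included. It rose from 3486 ± 44.8 to 11074 ± 669 CPM in DNL (n = 3, edgeR adjusted p = 2.08e-11) and fell in OA by 0.72 on the log2 scale. SERPINE2, a cell-bound thrombin inhibitor, was 1.93-fold higher in DNL.

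Receptors that thrombin and related proteases cleave were among the genes higher in OA. F2RL1, which encodes a protease-activated receptor cleaved by trypsin-like enzymes, measured 193, 212 and 208 CPM in WT, 80.8, 76.6 and 88.0 CPM in DNL, and 523, 595 and 598 CPM in OA. It fell 2.49-fold in DNL (adjusted p = 5.71e-09) and rose 2.80-fold in OA (adjusted p = 1.41e-09). F2R, the thrombin receptor, rose 2.14-fold in OA. LRP1, which clears protease and inhibitor complexes, and APOH, a plasma protein that binds phospholipid, fell 2.29-fold and 2.76-fold in OA. CPN1, a carboxypeptidase subunit, fell 2.29-fold in DNL. HABP2, a plasma protease that can activate factor VII, was chosen after its values were seen. It had 3 counts over WT and 165 over DNL, a ratio of 77.1 (exact 95% interval 25.9 to 378, counting error only).

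Among 11 genes of vitamin K handling and factor export, 3 rose (27.3%, background 27.1%) and 6 fell (54.5%, background 26.8%) in DNL. In OA 5 rose (45.5%, background 30.4%) and 5 fell (45.5%, background 29.7%). CYP4F2, the hydroxylase that breaks down vitamin K, measured 3.52, 5.01 and 3.55 CPM in WT, 19.4, 22.8 and 19.9 CPM in DNL, and 2.05, 1.81 and 0.950 CPM in OA. That is 5.13-fold higher in DNL (adjusted p = 3.72e-07) and 2.38-fold lower in OA (adjusted p = 0.000404). CALU, an inhibitor of the carboxylase, rose 1.41-fold in DNL, while FURIN, which removes propeptides, fell by 0.74 on the log2 scale. LMAN1 and MCFD2 form the receptor that carries factors V and VIII out of the endoplasmic reticulum. FURIN fell in OA too, by 0.42. LMAN1 fell in both models, by 0.23 and 0.33 on the log2 scale, and MCFD2 fell by 0.19 in DNL and rose by 0.13 in OA. In OA the 2 smallest adjusted p among the rises were those of NQO1 (1.22-fold), a quinone reductase, and TPST1 (1.40-fold), which sulphates tyrosines.

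Of 7 other vitamin K dependent proteins, 2 rose in DNL (28.6%, background 27.1%) and 3 in OA (42.9%, background 30.4%). In both models 0 fell (background 26.8% in DNL and 29.7% in OA). PRRG1 and PRRG4, membrane proteins with the same vitamin K dependent domain, rose 1.47-fold and 1.59-fold in DNL. MGP, an inhibitor of calcification, and GAS6, a ligand of receptor tyrosine kinases, were the rises in OA with the smallest adjusted p (0.00329 and 0.0129). MGP reached the filter cutoff in OA libraries alone and GAS6 mostly there, so a difference was built into their selection. For GAS6 the OA and WT libraries overlapped. MGP measured 0.711, 2.41 and 12.6 CPM and GAS6 0, 3.46 and 17.6 CPM in OA replicates 1, 2 and 3, in the same order as the collagens, and each had 1 count over WT.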

How the data were processed

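Total RNA of 9 HepG2 samples was depleted of ribosomal RNA and made into stranded libraries, per the labels' protocols. The deposited values are estimated counts per gene. The submitters' processing notes name kallisto 0.48.0, FastQC 0.11.9 and GRCh38, and the annotation release is not given in the sources used here. Of 19317 gene identifiers, 19316 matched a symbol and 19272 GENCODE release 29, the source of coordinates and transcript lengths. Counts were rounded to whole numbers, filtered with filterByExpr (minimum count 10), scaled by TMM and tested with edgeR 4.0.16 (quasi-likelihood, robust, 1 fit of all 9 samples by group) in R 4.3.3. The coefficient of variation between replicates was 10.6%. SE is derived from the F statistic. Replicate pairs differed by more than sampling noise (chi-square per degree of freedom 5.29 to 15.8), so none was treated as a duplicate. Deviations of same-numbered DNL and WT libraries correlated at 0.181, 0.102 and 0.116, and those with OA lay between -0.0679 and 0.0671. Of the 9 samples, 2 correlated best with their own number in both other groups. No label states a pairing, so the main fit did not use the numbers, which served as a block in an alternative. Alternatives used DESeq2 1.42.0 and limma 3.58.1. The procedure was tested on simulated data. The 34 genes and all lists were chosen with earlier results of these data known. All 34 genes are named. From the other lists the text names, per direction, the 2 members of smallest adjusted p, and LMAN1, MCFD2, HNF4A and CEBPA, unless it says otherwise. Some results that this rule covers are not reported here.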

Additional observations from a re-analysis of the deposited data

How the results depend on the processing

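Each comparison was refitted under 17 alternatives. In DNL against OA and OA against WT the counts of the 34 genes called stayed within 1 of the reported 26 higher and 3 lower, and 5 higher and 22 lower. In DNL against WT, 15 to 18 were higher and 3 or 4 lower without single libraries, and 20 and 4 in limma-voom. With scaling by library totals 5 were lower instead of 3, and 2505 of all genes were higher and 5265 lower instead of 3692 and 3650 (2958 and 5773 instead of 4349 and 4208 in DNL against OA). FGL1 turned to -0.0141 there, which follows from the shift of all genes. With the replicate block 17 genes were higher and 3 lower in DNL against WT. KNG1 was the call it ended, and no other call of the 34 genes changed. Without DNL replicate 2, F8 was called higher (log2 fold change 0.87, adjusted p = 0.0493). PROZ (0.33, 0.0429) and SERPINA10 (0.23, 0.0357) were called higher in limma-voom, and SERPINA10 without WT replicate 3 (0.28, 0.0341). With OA replicate 1 as the single OA library, F12 lost its call in DNL against WT (1.28, 0.0868) and against OA (1.60, 0.194). The causes were not tested. Low counts limit KLKB1, HRG, PLAT, PLG in OA and TFPI2.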

Other observations

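Transcription factors of hepatocytes were measured as well. All 12 were tested. Against WT the DNL libraries had 4 up (33.3%, background 27.1%) and 6 down (50%, background 26.8%). The OA libraries had 0 up (background 30.4%) and 9 down (75%, background 29.7%). HNF4A, a nuclear receptor that binds many liver promoters, was at 567 ± 13.7 CPM in WT, 481 ± 25.0 CPM in DNL and 257 ± 28.4 CPM in OA (n = 3; edgeR adjusted p = 0.00967 and 5.07e-08 against WT). CEBPA fell in both models, by 0.80 in DNL and 0.49 in OA on the log2 scale. FOXA3 and FOXA1 fell in DNL by 1.03 and 0.54 on the log2 scale, while NR5A2 and PROX1 rose 1.51-fold and 1.36-fold. In OA, ONECUT1 fell 4.17-fold, from 50.6 ± 0.703 to 11.9 ± 1.46 CPM, and NR1H4 11.4-fold.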
